A study of Mus musculus and Acomys cahirinus with 16 samples.

Results

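Transcripts of 10 genes that mark fat cells were followed in mouse and spiny mouse skin: Adipoq, Lep, Plin1, Plin4, Cidec, Pparg, Fabp4, Lpl, Lipe and Retn. They were taken by symbol from a list of known adipocyte genes; the rule uses no measured value, though the list was chosen with earlier results of these data known. All 10 were found once in the mouse table of 56980 genes and once in the spiny mouse table of 19818 genes. All 10 also passed the filter on low counts in both species, and the smallest count of any of them in any sample was 106.

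Adipocytes store triglyceride in a large lipid droplet, and in skin they form a layer under the dermis that thickens and thins with the hair cycle. Pparg encodes the nuclear receptor that drives their differentiation. Plin1, Plin4 and Cidec encode proteins of the droplet surface, Lpl and Lipe encode lipases that load and empty the store, Fabp4 encodes a carrier of fatty acids, and Adipoq, Lep and Retn encode the secreted hormones adiponectin, leptin and resistin. None of the transcripts is wholly private to adipocytes: Lpl is also made in muscle and macrophages, Fabp4 in endothelium and macrophages, Plin4 and Lipe in muscle.

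The samples were whole skin of Mus musculus and of Acomys cahirinus, the African spiny mouse, each with 4 untreated replicates and 4 replicates treated with DMBA/TPA. DMBA is a carcinogen and TPA a phorbol ester that promotes tumours, a pairing used to raise skin tumours, and the title of the series names resistance of the spiny mouse to this carcinogenesis as its subject. The labels used here give no strain, age, sex, dose or time for any group, and do not say whether treated skin held tumours. They do not say that replicates were separate animals either, so p-values measure the spread between these samples only. In bulk skin, fewer adipocytes and less RNA per adipocyte cannot be told apart.

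Promoter sequence was at hand in a RefSeq table (mouse, GRCm38.p6) for 8 of the 10 genes, in 12 windows of 300 bases, and for Fabp4 and Lpl it had no entry. The 250 bases before the start are shown, 5′ to 3′ on the gene's strand, for Lep, whose level fell most in spiny mouse skin, for Adipoq, a hormone made almost only by adipocytes, and for Plin4, the gene whose response differed between the species. Lep lies at chr6:29059971-29060220 on the plus strand, Adipoq at chr16:23146286-23146535 on the plus strand and Plin4 at chr17:56109783-56110032 on the minus strand. Capitals mark matches, on either strand, to 4 searched motifs: the nuclear receptor half-site AGGTCA, the TATA core TATAA, the CCAAT core and the C/EBP palindrome TTGCGCAA.
Lep: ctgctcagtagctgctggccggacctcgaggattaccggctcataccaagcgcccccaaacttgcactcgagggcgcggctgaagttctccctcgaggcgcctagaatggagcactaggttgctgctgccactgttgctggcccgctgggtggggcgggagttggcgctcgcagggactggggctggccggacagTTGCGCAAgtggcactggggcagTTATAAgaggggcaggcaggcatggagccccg
Adipoq: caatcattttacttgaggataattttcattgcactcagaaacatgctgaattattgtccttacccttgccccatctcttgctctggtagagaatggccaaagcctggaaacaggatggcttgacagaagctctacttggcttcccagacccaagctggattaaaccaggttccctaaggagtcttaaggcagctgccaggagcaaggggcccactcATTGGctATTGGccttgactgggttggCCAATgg
Plin4: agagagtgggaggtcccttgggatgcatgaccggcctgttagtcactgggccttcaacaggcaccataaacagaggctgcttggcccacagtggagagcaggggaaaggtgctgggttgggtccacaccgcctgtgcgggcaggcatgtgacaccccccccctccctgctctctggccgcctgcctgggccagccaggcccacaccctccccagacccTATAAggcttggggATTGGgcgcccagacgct
The palindrome TTGCGCAA began 55 bases before the Lep start and stood in 1 of the 12 windows, against 60 of 32851 promoter windows in the table (0.183%). Adipoq had 3 CCAAT matches, the nearest 7 bases before its start, and 4 of the 12 windows held one, against 37.4% of all windows. A TATAA match stood in 3 of the 12 windows (Lep, Plin4 and 1 of the 3 Pparg windows), against 24.9% of all windows. AGGTCA stood in 2 of the 12 windows, both of Pparg, against 16.3% of all windows. Matches to different motifs did not overlap, while TATAA matches on opposite strands share bases in Lep and in 1 Pparg window. These are letter matches in mouse sequence, and the spiny mouse promoters were not examined.

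Libraries held 19608787 to 30198281 counts in mouse and 21143918 to 30561256 in spiny mouse, so 3 counts corresponded to 0.0982 to 0.153 CPM (counts divided by the scaled size of the library), far under every level of the 10 genes. The epidermal keratin transcripts Krt5 and Krt14 were abundant in all groups, with untreated mouse means of 2987 ± 645.6 and 2129 ± 593.3 CPM (SD, n = 4). Untreated mouse replicate 2 stood apart from the other untreated mouse samples in the adipocyte genes. It was the lowest of the 4 in 10 of 10 genes, and for 4 of them it lay below the lowest treated sample. The same sample had a summed level of 1820 CPM for 7 anagen hair follicle keratins, against 3.553 to 27.4 CPM in the other untreated mouse samples. Of the 4 it had the lowest sums for sebocyte (1245 CPM), macrophage (381.7 CPM), epidermal (6635 CPM) and, by little, endothelial markers (204.8 CPM). Its muscle sum (14820 CPM) was the highest of the 4, and its fibroblast sum (9925 CPM) lay within the range of the others. Mouse tests of the 10 genes are therefore given with and without this sample.

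In mouse skin, 6 of the 10 genes were lower after DMBA/TPA and 0 were higher, by the edgeR quasi-likelihood test with Benjamini-Hochberg adjustment over all genes. Of the 19740 mouse genes tested, 61.2% were called, 35.3% lower and 25.9% higher. In spiny mouse skin the adipocyte genes called were again 6 lower and 0 higher, where 55.1% of 14833 genes were called, 26.9% lower and 28.2% higher. The median log2 fold change of the 10 genes was -1.08 in mouse and -0.60 in spiny mouse, beside medians of -0.15 and -0.01 over all genes tested. Without untreated mouse replicate 2, 9 of the 10 genes were called lower in mouse, all but Lipe, beside 36.2% of 20009 genes called lower and 33.5% higher. The groups separated fully for 1 of 10 genes in mouse (32.0% of all genes separated with treated lower), for 8 of 10 without replicate 2 (39.3% of all genes), and for 6 of 10 in spiny mouse (24.1%).

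**Figure D1:**
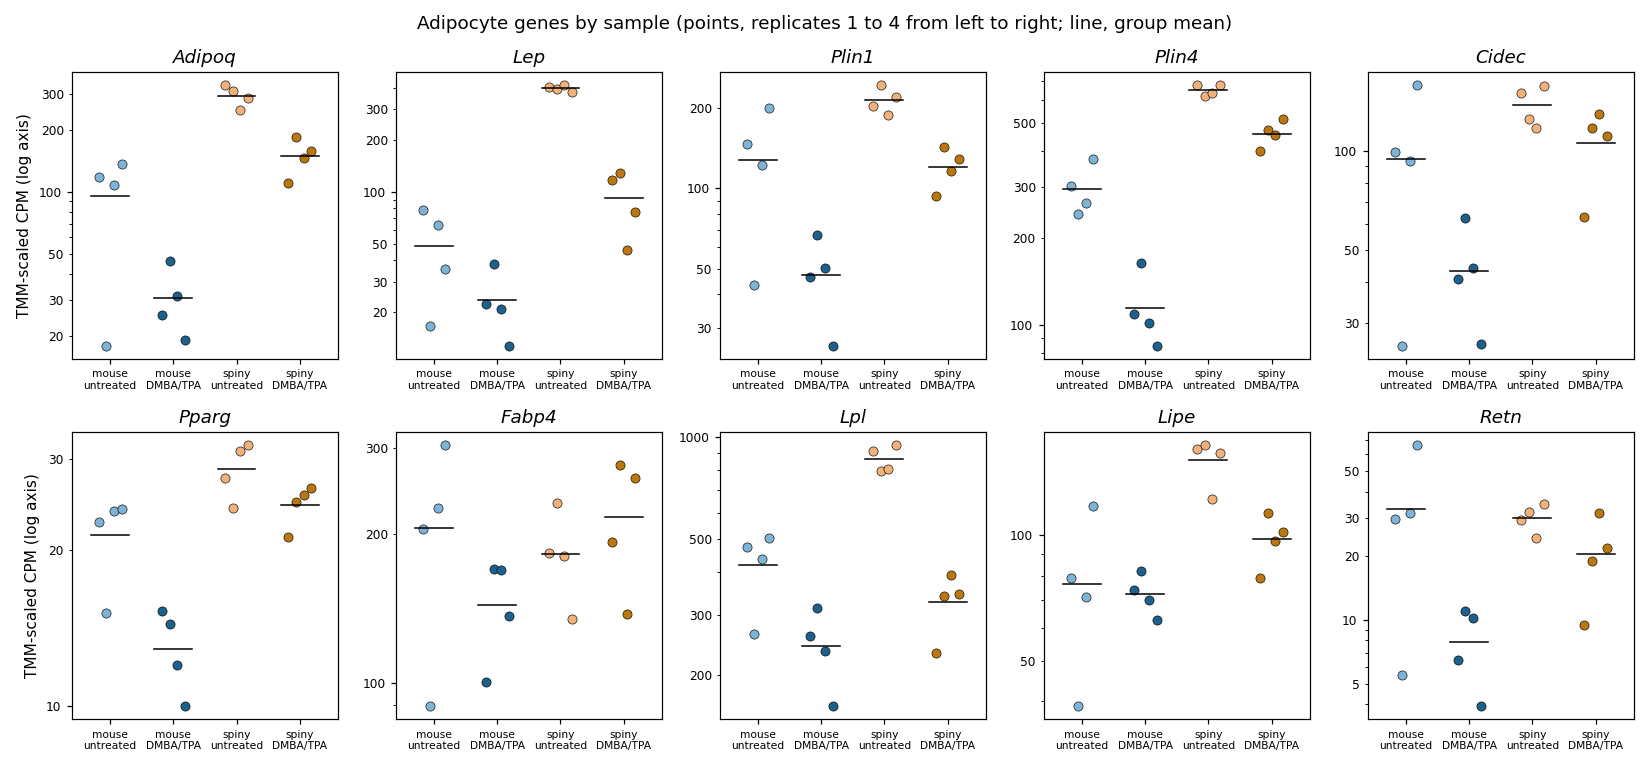
Levels of the 10 adipocyte genes in each of the 16 samples, in TMM-scaled CPM on a log axis with its own range for each gene; points are replicates 1 to 4 from left to right and the line is the group mean. The second untreated mouse point lies lowest of its group in all 10 panels, and treated and untreated spiny mouse samples do not overlap for Adipoq, Lep, Plin1, Plin4, Lpl and Lipe.

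Adiponectin, leptin and resistin are hormones that act on insulin sensitivity and appetite. Mouse Adipoq (ENSMUSG00000022878, chromosome 16, 22965286 to 22976778, GRCm39) stood at 118.2, 17.89, 107.8 and 135.9 CPM in untreated replicates 1 to 4 and at 25.31, 45.98, 31.21 and 19.01 CPM in treated replicates 1 to 4. All untreated samples but replicate 2 lay above all treated ones. The fall was 3.13-fold, or -1.64 as a log2 fold change (SE 0.528, edgeR adjusted p 0.0225), and -1.90 (adjusted p 2.3e-05) without replicate 2. That call was narrow: leaving out untreated replicate 3 or 4 or treated replicate 1, 3 or 4 moved it to -1.50, -1.42, -1.54, -1.64 and -1.45, and edgeR adjusted p then ran from 0.0513 to 0.0661. In spiny mouse, Adipoq (scaffold_4, 81531973 to 81545900, AcoCah2) was at 330.3, 307.1, 248.6 and 285.5 CPM untreated and at 110.6, 184.2, 145.2 and 158 CPM treated. The groups did not overlap, and the log2 fold change was -0.97 (SE 0.151, edgeR adjusted p 0.000639).

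Leptin showed the largest fall of the 10 genes in spiny mouse and no call in mouse. Spiny mouse Lep (scaffold_3, 151380490 to 151394534) was at 402.7, 395.3, 415.8 and 378.3 CPM untreated, a tight group, and at 117.5, 128.1, 45.93 and 76.67 CPM treated. Every treated sample lay far below every untreated one, and the log2 fold change was -2.11 (SE 0.277, edgeR adjusted p 0.000257). Mouse Lep (ENSMUSG00000059201, chromosome 6, 29060219 to 29073876) was at 78.57, 16.62, 63.96 and 35.49 CPM untreated and at 22.26, 38.28, 20.99 and 12.81 CPM treated. These groups overlapped, with means of 48.66 ± 27.86 and 23.59 ± 10.66 CPM, and the log2 fold change, -1.05, was not called (SE 0.467, edgeR adjusted p 0.0769). With all samples it passed by limma-voom (adjusted p 0.00322) and in edgeR scaled by library size alone (0.0348) or upper quartile (0.0399), but not by DESeq2. It also passed in edgeR without untreated replicate 2 (-1.24, adjusted p 0.00474) and without treated replicate 2 (-1.28, adjusted p 0.0472).

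Resistin gave the largest mouse fall among the 10 genes. Mouse Retn (ENSMUSG00000012705, chromosome 8, 3705770 to 3710110) was at 29.92, 5.482, 31.8 and 66.23 CPM untreated and at 6.458, 10.99, 10.18 and 3.935 CPM treated. Only untreated replicate 2 reached into the treated range, and the untreated samples spanned 12.1-fold. The log2 fold change was -2.08 (SE 0.621, edgeR adjusted p 0.0164), and -2.34 (adjusted p 0.0001) without replicate 2. Spiny mouse Retn (scaffold_15, 57650778 to 57657061) was at 29.53, 32.05, 24.34 and 35.1 CPM untreated and at 9.507, 18.97, 31.77 and 21.7 CPM treated. Treated replicate 3 lay within the untreated range and the change was not called (-0.56, SE 0.296, edgeR adjusted p 0.136). Without treated replicate 3 it was called (-0.85, adjusted p 0.0235).

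Among droplet proteins, perilipin 4 gave the clearest mouse fall. Mouse Plin4 (ENSMUSG00000002831, chromosome 17, 56407591 to 56416803) was at 303.1, 242.1, 263.9 and 375.8 CPM untreated and at 108.7, 163.7, 101.2 and 84.46 CPM treated. It alone of the 10 had separate groups in mouse with replicate 2 included (log2 fold change -1.37, SE 0.224, edgeR adjusted p 0.000791; -1.37 without replicate 2, adjusted p 0.000101). Spiny mouse Plin4 (scaffold_16, 49720012 to 49729488) was at 675.6, 619.4, 633.3 and 677.4 CPM untreated and at 398.6, 471.3, 453.4 and 514.5 CPM treated, a smaller but fully separated fall (-0.50, SE 0.0926, adjusted p 0.00158). In both species an exon of Plin4 overlaps Hdgfl2 on the opposite strand, and the deposited counting used no strand, so reads of the overlap cannot be assigned.

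Perilipin 1, which guards the droplet against lipases, fell in both species. Mouse Plin1 (ENSMUSG00000030546, chromosome 7, 79369966 to 79382651) was at 147.1, 43.29, 122.6 and 200.4 CPM untreated and at 46.47, 66.86, 50.38 and 25.65 CPM treated. Replicate 2 apart, the untreated samples were all higher, and the log2 fold change was -1.44 (SE 0.430, edgeR adjusted p 0.0164), or -1.64 (adjusted p 0.000179) without it. Spiny mouse Plin1 (scaffold_12, 33871751 to 33885264) was at 203.1, 244.6, 188.4 and 220.7 CPM untreated and at 93.76, 142.7, 116.7 and 128.8 CPM treated, with no overlap (-0.83, SE 0.131, adjusted p 0.000699).

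Cidec promotes fusion of droplets into a large one. Mouse Cidec (ENSMUSG00000030278, chromosome 6, 113401595 to 113412721) was at 99.26, 25.66, 93.45 and 158.6 CPM untreated and at 40.8, 62.59, 44.05 and 26.06 CPM treated. The lowest value of both groups was that of untreated replicate 2, and the difference was not called (-1.12, SE 0.464, edgeR adjusted p 0.0604). It was called without that sample (-1.35, adjusted p 0.00067), and, with all samples, by DESeq2 (adjusted p 0.0316) and limma-voom (0.000901) and in edgeR scaled by library size alone (0.0268) or upper quartile (0.0302). Spiny mouse Cidec (scaffold_4, 31538653 to 31552671) was at 150.2, 124.9, 117.7 and 157.3 CPM untreated and at 62.91, 117.7, 129.7 and 111.2 CPM treated. There treated replicate 1 alone lay far under the untreated range, and the value was -0.38 (SE 0.202, edgeR adjusted p 0.134).

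Lipoprotein lipase, which frees fatty acids from circulating lipoproteins for uptake by tissues, fell in both species. Spiny mouse Lpl (scaffold_13, 62609224 to 62635099) was at 908.6, 793.4, 806.2 and 946.8 CPM untreated and at 230.9, 341, 394.2 and 346.6 CPM treated. The groups lay far apart (log2 fold change -1.40, SE 0.157, edgeR adjusted p 0.000115). Mouse Lpl (ENSMUSG00000015568, chromosome 8, 69333143 to 69360100) was at 474.1, 264.2, 439.2 and 503.8 CPM untreated and at 259.4, 314.6, 234.8 and 161.8 CPM treated. Untreated replicate 2 fell among the treated samples, and the log2 fold change was -0.79 (SE 0.251, edgeR adjusted p 0.0212), or -0.87 (adjusted p 0.00109) without it. The mouse call was lost when untreated replicate 1, 3 or 4 or treated replicate 3 or 4 was left out, with values of -0.72, -0.70, -0.69, -0.76 and -0.62 and edgeR adjusted p-values of 0.0528 to 0.0623.

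Hormone-sensitive lipase, which hydrolyses stored lipid, fell in spiny mouse and showed no call in mouse. Spiny mouse Lipe (scaffold_19, 4570827 to 4590938) was at 161.4, 164.6, 122.1 and 157.6 CPM untreated and at 79.06, 113.4, 96.72 and 101.8 CPM treated, without overlap (-0.63, SE 0.127, edgeR adjusted p 0.00254). Mouse Lipe (ENSMUSG00000003123, chromosome 7, 25078952 to 25098135) was at 78.74, 38.9, 71.22 and 117.3 CPM untreated and at 73.93, 81.93, 69.98 and 62.63 CPM treated. The treated samples sat inside the untreated range (-0.09, SE 0.273, edgeR adjusted p 0.799; -0.22 without untreated replicate 2, adjusted p 0.246), and the sign of this value depended on the scaling, from -0.31 to 0.02. Mouse Lipe shares exon sequence with 4732471J01Rik on the opposite strand.

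Fabp4, the fatty acid carrier, was called in neither species. Mouse Fabp4 (ENSMUSG00000062515, chromosome 3, 10269148 to 10273636) was at 205.5, 89.64, 226.3 and 303.5 CPM untreated and at 100.1, 169.9, 169.1 and 136.5 CPM treated (-0.52, SE 0.328, edgeR adjusted p 0.194). It was called lower without untreated replicate 2 (-0.68, adjusted p 0.00588). Spiny mouse Fabp4 (scaffold_2, 70136898 to 70140937) was at 183.7, 232, 180.9 and 134.6 CPM untreated and at 192.8, 276.2, 138 and 260.9 CPM treated. It was the 1 gene of the 10 with a positive value there (0.25, SE 0.227, edgeR adjusted p 0.378), and its groups overlapped widely.

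The differentiation factor Pparg had modest differences. Mouse Pparg (ENSMUSG00000000440, chromosome 6, 115337912 to 115467360) was at 22.68, 15.09, 23.85 and 24.05 CPM untreated and at 15.23, 14.37, 11.97 and 9.987 CPM treated. Untreated replicate 2 lay just under the highest treated sample, and the log2 fold change was -0.73 (SE 0.187, edgeR adjusted p 0.00778), or -0.78 (adjusted p 0.000356) without that sample. Spiny mouse Pparg (scaffold_4, 29532237 to 29659591) was at 27.56, 24.15, 31.14 and 31.95 CPM untreated and at 21.2, 24.8, 25.62 and 26.36 CPM treated. The groups overlapped (-0.23, SE 0.108, edgeR adjusted p 0.0985), and without untreated replicate 2 of the spiny mouse the fall was called (-0.30, adjusted p 0.0294).

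**Figure D2:**
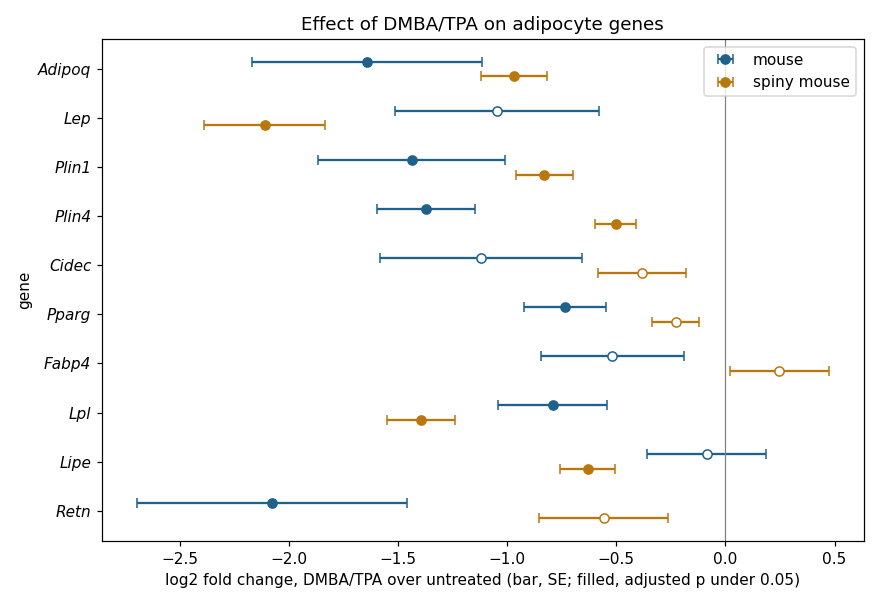
Log2 fold changes, treated over untreated, for the 10 genes in mouse and spiny mouse, with bars of 1 standard error; filled points passed an adjusted p under 0.05. All mouse values are negative and so are all spiny mouse values except that of Fabp4 (0.25), and the mouse errors are the wider.

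Whether the species responded differently was tested as the interaction of species and treatment over 13656 shared symbols, of which 46.1% were called, 21.4% with a larger (less negative or more positive) log2 fold change in spiny mouse and 24.7% with a smaller one. Of the 10 genes, 1 was called: Plin4, whose log2 fold change was larger by 0.87 in spiny mouse (SE 0.252, edgeR adjusted p 0.0107), that is, its fall was the shallower. Lep (-1.07, SE 0.581, adjusted p 0.146), Lpl (-0.60, SE 0.310, adjusted p 0.123) and Lipe (-0.55, SE 0.324, adjusted p 0.181) had negative differences, steeper in spiny mouse, none passing the edgeR test. The remaining 6 had positive differences, up to 1.52 for Retn (SE 0.728, edgeR adjusted p 0.0998), and the median of the 10 was 0.64 beside -0.03 over all symbols. So the fall of Lep called in spiny mouse alone was not shown to differ from that of mouse.

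This test depended on untreated mouse replicate 2. Without it 7 of the 10 genes were called with a larger value in spiny mouse, beside 22.5% of 13701 symbols, and 0 with a smaller one, beside 33.8%. They were Plin4 (0.86, edgeR adjusted p 0.008), Retn (1.79, adjusted p 0.00881), Pparg (0.55, adjusted p 0.0174), Adipoq (0.93, adjusted p 0.0196), Fabp4 (0.93, adjusted p 0.0268), Cidec (0.96, adjusted p 0.0399) and Plin1 (0.81, adjusted p 0.0498). Lipe was called with a smaller value in spiny mouse without untreated mouse replicate 4 (-0.83, adjusted p 0.0216), and Lpl without treated mouse replicate 4 (-0.78, adjusted p 0.0433).

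How far the genes moved together was read from each sample's log2 level minus the mean of its own group, which removes the effect of treatment. In untreated mouse skin, replicate 1 lay above its group mean in 10 of 10 genes, replicate 2 in 0, and replicates 3 and 4 in 9 each, with Plin4 and Lep as the respective exceptions. In treated mouse skin, replicate 2 lay above in 10 genes, replicate 4 in 0, and replicates 1 and 3 in 5 each. The mean log2 CPM of the 10 genes ran from 5.25 to 7.05 over untreated and from 4.95 to 5.96 over treated mouse samples. If genes rose and fell in step, the SD of this mean over samples would equal the mean SD of the single genes, a ratio of 1. Unrelated genes would still give a positive ratio, so a low ratio need not show joint movement. The ratio was 0.955 in untreated mouse skin (0.804 over 0.841) and 0.912 in treated mouse skin (0.415 over 0.455). Leaving out replicate 2 lowered the untreated ratio to 0.622.

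Spiny mouse samples had smaller spreads and lower ratios. Untreated replicates 1 to 4 lay above their group mean in 7, 5, 3 and 7 genes, their means of the 10 genes ran only from 7.41 to 7.57 log2 CPM, and the ratio was 0.449 (0.0772 over 0.172). It fell to 0.0558 without replicate 3 and was 0.556 without replicate 2. In treated spiny mouse skin, replicates 1 to 4 lay above in 1, 10, 4 and 9 genes, Lep being the exception in replicate 1 and in replicate 4. The treated ratio was 0.631 (0.236 over 0.374), and leaving out replicate 1 or replicate 3 gave 0.457 or 0.837.

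**Figure D3:**
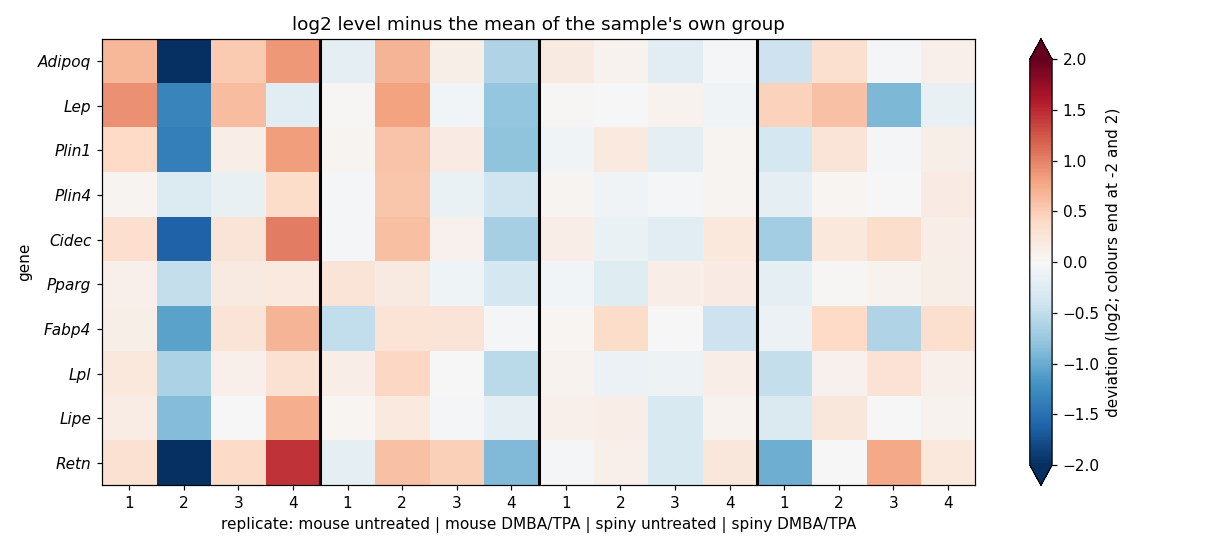
Deviation of each gene's log2 CPM from the mean of the sample's own group, genes in rows and the 16 samples in columns, with blue below and red above the mean. The second mouse column is blue in all 10 rows and the sixth column (treated mouse replicate 2) red in all 10, and untreated spiny mouse columns are pale.

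Single genes differed in how well they followed the other 9. Over the 8 samples of a species, each gene's deviations were correlated with those of the mean of the others, as a description in which the samples share library composition. In mouse Pearson's r was at least 0.726 for each gene, with Cidec (0.992), Plin1 (0.987) and Adipoq (0.981) highest and Lep (0.766) and Plin4 (0.726) lowest. In spiny mouse Adipoq (0.941), Plin1 (0.891) and Lipe (0.873) again followed the others. Retn (0.457), Pparg (0.296) and Fabp4 (0.175) followed weakly, and r of Lep was negative (-0.338). In treated spiny mouse replicate 1, Lep lay above its group mean by 0.461 and the other 9 genes lay below theirs. That sample had the largest mean deviation in spiny mouse (-0.326), and r without it is not given here, so the negative r of Lep may rest on it. In mouse, untreated replicate 2 had the largest deviation, averaging -1.18 over the genes. Without it, over 7 samples, r in mouse was 0.383 for Lep, 0.443 for Fabp4 and 0.660 for Pparg, and still 0.976 for Plin1, 0.970 for Cidec and 0.969 for Adipoq.

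If treatment moved all 10 genes by the same factor, the log2 ratio of each gene to the mean of the other 9 would be the same in treated and untreated skin. In spiny mouse, Lep dropped against the others by 1.61 and Lpl by 0.72, with no overlap between groups. Fabp4 gained 1.10, Pparg 0.61 and Plin4 0.29 against the others, again without overlap, and Adipoq, Plin1, Cidec, Lipe and Retn overlapped. The mean of the others includes Lep for each of these genes, so the fall of Lep (-2.11) raises their ratios. The log2 fold change of Plin4 itself was -0.50, near the median of the 10 (-0.60). In mouse the ratio of Lipe was higher by 1.08 in treated skin, with all treated above all untreated samples, and that of Plin1 was lower by 0.40, while those of the other 8 genes overlapped. Without untreated replicate 2, 6 mouse genes separated: Lipe (1.19), Fabp4 (0.63) and Lpl (0.39) gained against the others, and Retn (-1.20), Adipoq (-0.78) and Plin1 (-0.47) dropped. These ratios carry no test. Within groups the ratio was steadier between samples than the gene's own level for 8 untreated and 7 treated genes of 10 in mouse, and for 6 and 8 in spiny mouse.

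**Figure D4:**
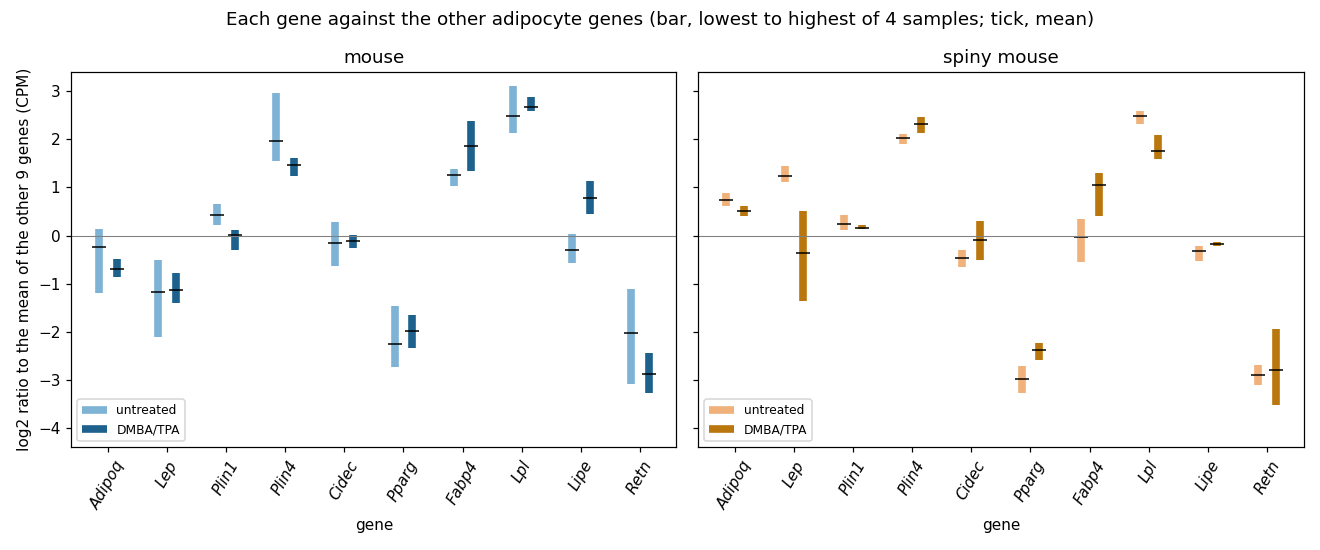
Log2 ratio of each gene's CPM to the mean of the other 9 genes, with bars from the lowest to the highest of 4 samples and a tick at the mean, untreated beside treated. Separate bars are those of Plin1 and Lipe in mouse and of Lep, Plin4, Pparg, Fabp4 and Lpl in spiny mouse.

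Markers of other skin cells moved with the same comparisons. The summed level of 8 skeletal muscle genes was 10640 to 14820 CPM in untreated and 2414 to 3275 CPM in treated mouse skin, and 10670 to 13460 against 3544 to 7326 CPM in spiny mouse. By the edgeR test, 8 of 8 muscle genes tested were lower in treated mouse skin and 7 of 7 in spiny mouse. Untreated mouse replicate 2 had the highest muscle sum of all and the lowest adipocyte levels of its group. The 7 anagen keratins summed to 18300 to 19490 CPM in treated mouse skin, above all untreated samples, while in spiny mouse (6 in its table) the sums were 933.1 to 10300 CPM untreated and 152.6 to 2583 CPM treated, which overlap.

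Among other cell types that can make Lpl, Fabp4 or lipid genes, the macrophage sum was 381.7 to 1002 CPM untreated and 445 to 637.6 CPM treated in mouse, and 466.4 to 533.2 against 935.1 to 1550 CPM in spiny mouse. The sum of 8 endothelial markers was 204.8 to 217 against 129.6 to 182.4 CPM in mouse and 264.9 to 322.9 against 225.7 to 273.1 CPM in spiny mouse. Sebocyte markers, from the oil gland, summed to 1245 to 2426 against 1838 to 2093 CPM in mouse and 3186 to 5344 against 2929 to 3406 CPM in spiny mouse. Untreated mouse replicate 2 apart, the untreated mouse sums (2140 to 2426 CPM) lay above all treated ones. By the edgeR test, 4 of 10 sebocyte genes were lower and 2 higher in mouse, or 7 lower and 2 higher without that sample. In spiny mouse 2 of 9 were lower and 0 higher. Epidermal markers were higher in all treated samples, at 20860 to 29820 against 6635 to 12970 CPM in mouse and 24250 to 31270 against 12950 to 16360 CPM in spiny mouse. Fibroblast markers summed to 9630 to 15960 against 7287 to 10970 CPM in mouse and 4678 to 7876 against 2532 to 3587 CPM in spiny mouse. 0 of the listed marker genes in a table were at 0 in all its samples, and the part of these cell types in the adipocyte result was not tested.

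**Figure D5:**
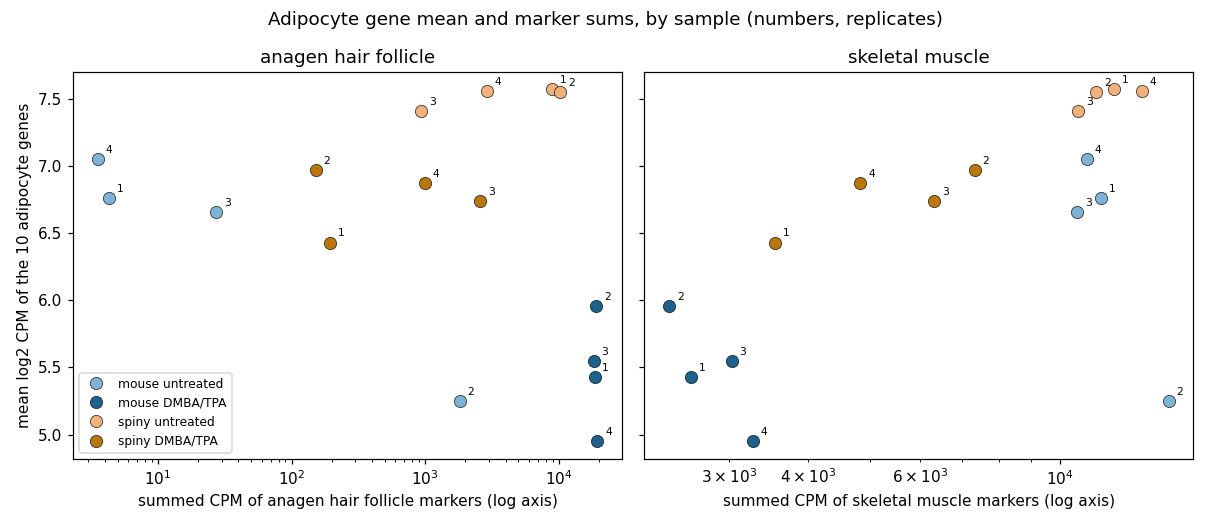
Mean log2 CPM of the 10 adipocyte genes against the summed CPM of anagen hair follicle markers (left) and skeletal muscle markers (right), both on log axes, with 1 point per sample and its replicate number. Untreated mouse replicate 2 has a low adipocyte mean (5.25) with 1820 CPM of anagen and 14820 CPM of muscle markers.

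Levels were also divided by the deposited gene length (RPKM) to set different genes side by side within a species. The order of genes depends on that length. In untreated mouse skin, replicate 2 included, the order of mean levels was Adipoq (68.7 ± 38.1 RPKM), Cidec (50.8 ± 29.3), Plin4 (46.7 ± 9.25), Fabp4 (45.9 ± 19.7), Lpl (40.1 ± 10.3), Plin1 (27.6 ± 14.1), Retn (21.1 ± 15.8), Lep (14.5 ± 8.31), Lipe (13 ± 5.47) and Pparg (7.25 ± 1.44). No neighbours in that order differed by more than the larger of their SDs, except Lipe and Pparg. In untreated spiny mouse skin Adipoq (243 ± 28.8 RPKM), Lpl (236 ± 20.7) and Fabp4 (220 ± 47.8) led and did not differ beyond their spread. Then came Lep (121 ± 4.77), followed by Plin4 (93.7 ± 4.24), Plin1 (86.2 ± 9.72) and Cidec (80.3 ± 11.2), close to one another, and by Lipe (33.9 ± 4.42), Retn (25.2 ± 3.80) and Pparg (8.07 ± 1.01). In treated spiny mouse skin Fabp4 led at 261 ± 76.8 RPKM, ahead of Adipoq at 124 ± 25.4, and Lep stood at 28.1 ± 11.6. In treated mouse skin Fabp4 also had the highest mean, 32.1 ± 7.37 RPKM, ahead by more than the larger SD of each pair of Cidec (23.4 ± 8.09), Lpl (23.2 ± 6.05) and Adipoq (22.0 ± 8.35), which did not differ among themselves beyond their spread. Gene models differ in length between the tables, as for Fabp4 (4489 bases in mouse, 832 in spiny mouse) and Lpl (10478 and 3655). RPKM is therefore not compared between species. A longer model gives a lower RPKM for the same counts, so the places of Fabp4 and Lpl in the mouse orders are uncertain.

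Other genes of fat storage were read from lists by role. Of the genes for lipid droplets and triglyceride synthesis, 3 of 13 tested were lower and 0 higher in mouse (median log2 fold change -0.36) and 6 of 12 lower and 0 higher in spiny mouse (-0.24). Plin5, a perilipin of oxidative tissues, fell in both, from 4.931 ± 1.162 to 1.051 ± 0.1416 CPM in mouse (-2.23) and from 6.851 ± 1.192 to 3.524 ± 0.941 CPM in spiny mouse (-0.95). Without untreated mouse replicate 2 the mouse count was 7 lower and 1 higher. Lpin1, a phosphatase of triglyceride synthesis, fell in mouse (-1.09), and Dgat2, which makes triglyceride, in spiny mouse (-0.89). Of lipolysis genes, 5 of 10 were lower and 1 higher in mouse (median -0.58) and 4 of 10 lower and 1 higher in spiny mouse (-0.28). Without that sample 8 were lower in mouse. There the adrenergic receptor Adrb3 (-1.52) and the phosphodiesterase Pde3b (-1.32) fell, and Abhd5, the co-activator of the triglyceride lipase, rose (0.61). In spiny mouse the glycerol channel Aqp7 (-0.87) and the kinase subunit Prkar2b (-0.67) fell, and the receptor Hcar2 rose from 42.08 ± 7.396 to 174.6 ± 34.95 CPM (2.05).

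Of genes for fatty acid synthesis and its carbon supply, 4 of 11 were lower and 0 higher in mouse (median -0.50), and 9 of 11 lower and 1 higher in spiny mouse (-0.73). Again 8 were lower in mouse without untreated replicate 2. Thrsp, a regulator of lipid synthesis, and Pck1, which feeds glycerol synthesis, fell in mouse (-1.78 and -1.52). Scd1, the fatty acid desaturase, and Fasn, the fatty acid synthase, fell in spiny mouse (-1.45 and -1.06). Pck1, 1 of 4 list genes called in opposite directions in the 2 species, went from 40.04 ± 20.25 to 14 ± 7.537 CPM in mouse and from 99.64 ± 37.42 to 182.2 ± 48.37 CPM in spiny mouse (0.87), and the difference of 2.39 passed the edgeR interaction test (adjusted p 0.004303; 2.59 without that replicate, adjusted p 0.0004433). The other 3 also passed the edgeR interaction test: Stat5a (-0.56 in mouse and 0.94 in spiny mouse, adjusted p of the difference 0.0001758), Abhd5 (0.61 and -0.32, adjusted p 0.0008111) and Adipor2 (0.55 and -0.25, adjusted p 0.006276). All 4 were picked for their opposite calls in these same samples, so the interaction tests are no separate support. The share of all shared symbols called in opposite directions is not given here, while 46.1% of them passed the interaction test. Sebocytes express many genes of fatty acid synthesis too.

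Of 12 adipogenic transcription factors, 6 were lower and 1 higher in mouse (median -0.42) and 5 lower and 3 higher in spiny mouse (-0.19). Ebf2 (-1.84) and the liver X receptor gene Nr1h3 (-1.07) fell in mouse and Cebpb rose (1.13). In spiny mouse the coactivator gene Ppargc1a (-1.29) and Zfp423 (-0.71) fell, and Stat5a (0.94) and Cebpd (0.93) rose. Of 14 genes of uptake and insulin signalling, 12 were lower and 0 higher in mouse (median -0.83) and 9 lower and 0 higher in spiny mouse (-0.58). Acvr1c (-2.36), a receptor of the TGF-beta family, and the insulin-responsive glucose carrier Slc2a4 (-1.52) led in mouse, and Slc2a4 is also a muscle gene. Gpihbp1, which carries Lpl to the capillary wall, fell from 15.34 ± 2.884 to 4.776 ± 0.8779 CPM in spiny mouse (-1.68), as did the insulin receptor substrate gene Irs1 (-1.35).

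Secreted products other than the 3 hormones were lower for 6 of 8 genes and higher for 1 in mouse (median -1.33), and lower for 7 of 8 and higher for 0 in spiny mouse (-0.73). Cfd, or adipsin, fell from 527.3 ± 367.8 to 152.8 ± 71.56 CPM in mouse (-1.79) and from 209.0 ± 36.07 to 79.24 ± 28.04 CPM in spiny mouse (-1.40). Rbp4, a retinol carrier, fell in mouse (-1.92) and the peptide gene Apln rose (0.66), and Angptl8 fell in spiny mouse (-2.54). Of 5 receptors of the 3 hormones, 1 was lower and 2 higher in mouse (median 0.04), and 3 lower and 1 higher in spiny mouse (-0.25). The mouse median was -0.08 without untreated replicate 2. The leptin receptor gene Lepr fell in spiny mouse from 47.42 ± 5.924 to 14.62 ± 1.443 CPM (-1.70), alongside Lep itself. Cdh13, which binds adiponectin, fell in mouse (-1.23) and spiny mouse (-0.63), Cap1 rose in both (0.78 and 0.91), and Adipor2 rose in mouse (0.55).

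Brown and beige fat genes were lower for 4 of 6 and higher for 1 in mouse (median -0.89), and lower for 5 of 7 and higher for 1 in spiny mouse (-0.77). Cox8b and Cox7a1, subunits of cytochrome oxidase also made in muscle, fell in mouse (-2.14 and -2.10) and spiny mouse (-0.97 and -0.99). Elovl3, a fatty acid elongase that sebocytes also make, rose in mouse (1.14), and Dio2, which activates thyroid hormone, rose in spiny mouse (2.50). Ucp1, the defining thermogenic gene, was too low to test, with untreated means of 0 CPM in mouse and 0.281 ± 0.091 CPM in spiny mouse. Of progenitor genes, 3 of 8 were lower and 1 higher in mouse (median -0.35), and 4 of 8 lower and 2 higher in spiny mouse (-0.52). Cd34 (-1.33) and Zfp521 (-1.26) fell in mouse, Pi16 (-1.16) and Dpp4 (-0.71) fell in spiny mouse, Pdgfra rose there slightly (0.21), and Cd24a, also a keratinocyte gene, rose in both (1.94 and 0.69). All calls in the lists are edgeR calls adjusted over all genes tested, and the shares of genes called lower overall were 35.3% and 26.9%. Leaving out untreated mouse replicate 2 kept the direction and call of each mouse list gene named here, and moved the number called lower by at most 1 gene in the lists for which no such count is given.

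The genes whose within-group deviations were most like those of the mean of the 10 were sought among 12185 symbols, over 8 samples in each species. Aifm2 stood first (r = 0.974 in mouse and 0.975 in spiny mouse), followed by Arhgap29 (0.953 and 0.910), Cyp2f2 (0.908 and 0.923), Slc7a10 (0.890 and 0.888) and A530016L24Rik (0.887 and 0.957), the mouse value first. Leaving out the 2 samples farthest from the median, r of Aifm2 was 0.914 in mouse and 0.922 in spiny mouse, and r of A530016L24Rik dropped to 0.644 in mouse. These values describe a ranking over many genes and carry no test. Levels of Aifm2 were 19.4 ± 5.219 CPM untreated and 11.42 ± 2.008 CPM treated in mouse (-0.77, edgeR adjusted p 0.01218), and 18.78 ± 1.708 and 9.966 ± 1.847 CPM in spiny mouse (-0.91, adjusted p 0.0005942). Arhgap29 shared the within-group pattern but was not called in mouse (0.10, edgeR adjusted p 0.4943), while it fell in spiny mouse (-0.75, adjusted p 4.27e-05).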

How the data were processed

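Polyadenylated RNA of skin was sequenced in 16 samples, 4 for each species and treatment. The authors deposited raw counts of read pairs per gene, 1 table for each species; per the file headers these came from featureCounts 2.0.3 with both ends mapped and no strand option, on GRCm39 with Ensembl 108 (mouse) and on AcoCah2 (spiny mouse). Per the submitters' processing notes, Trim Galore and HISAT2 were used. Mouse identifiers were given symbols from GENCODE (56236 of 56980). Untreated columns carry another code than the labels and were matched by species letter and replicate number; the column of untreated mouse replicate 2 has a further suffix of unstated meaning. The series' design text describes irradiated fibroblasts, and the sample labels were followed.

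Each species table was fitted whole with edgeR 4.0.16 in R 4.3.3 (filterByExpr, TMM, quasi-likelihood F test, Benjamini-Hochberg adjustment, called under 0.05), after a test on simulated counts. The standard error is the log2 fold change over the square root of F. CPM is TMM-scaled, and RPKM uses the deposited gene length. Log2 levels have a prior count of 2. The members and lists were chosen with earlier results of these data known. Named genes were the 10 members, in each list and species the 2 called genes with the largest rise and the 2 with the largest fall, and the 5 symbols most like the members whose average log2 CPM reached 1. The 4 list genes called in opposite directions were singled out after their values were seen. Other settings tried were DESeq2 1.42.0 (its Wald test, and its size factors in edgeR), upper-quartile factors, library size alone, other filters, a robust fit, limma-voom (3.58.1), the replicate block, a prior count of 0.5 and leaving out each sample. Lists, ratios and correlations without untreated mouse replicate 2 were added after seeing the data.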

Additional observations from a re-analysis of the deposited data

Results flagged for a closer look

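In untreated mouse skin, Pparg had an isolated low value of 15.09 CPM in replicate 2; its gap to the next sample was 0.847 of the group's range, above Dixon's critical value for 4 samples. In untreated spiny mouse skin, Lipe had an isolated low value of 122.1 CPM in replicate 3 (0.834 of the range). These 2 came from 40 pairs of a group and a gene, which share samples and so are not independent. Chance alone sets off this rule in about 1 in 20 such pairs. The log2 fold change of Plin4 differed between the species by 0.87, the 1 difference among the 10 genes that passed the edgeR interaction test.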

How the results depend on the processing

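Adipocyte genes called lower numbered 4 to 9 in mouse and 6 to 7 in spiny mouse over fits that left out 1 sample, and 0 were called higher in any of these. Over all genes these fits called 5902 to 7234 lower and 4565 to 6710 higher in mouse, of 20009 to 20751 tested. In spiny mouse they called 3507 to 3867 lower and 3718 to 4265 higher, of 14908 to 15027 tested. The species difference had 1 to 7 genes called larger in spiny mouse (7 without untreated mouse replicate 2) and 0 to 1 called smaller. It had 2 called larger when upper-quartile factors or library size alone set the scale and 6 with limma-voom. Of all 13656 symbols, 3886 (upper-quartile factors), 4305 (library size alone) and 3758 (limma-voom) were called larger. Under the 2 scalings that share was above the share of adipocyte genes called larger, and under limma-voom below it. The DESeq2 Wald test called 1 adipocyte gene smaller (Lpl), beside 4342 of all symbols. The cause of these changes was not tested. Lep and Cidec were called in mouse under both of those scalings and limma-voom, Cidec also with DESeq2, and Fabp4 with limma-voom. The ratio of SDs that describes joint movement, under an alternative chosen after seeing the data, ran over fits without 1 sample from 0.622 to 0.993 in untreated and 0.845 to 0.977 in treated mouse skin, and from 0.0558 to 0.556 in untreated and 0.457 to 0.837 in treated spiny mouse skin.

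With the replicate block, 2 of the 10 genes were called lower in mouse (Plin4 and Pparg), beside 6348 of all 19740 genes tested. Adipoq (-1.51, edgeR adjusted p 0.101), Plin1 (-1.35, 0.071), Retn (-1.79, 0.088) and Lpl (-0.80, 0.0608) were not called. Genes called under the block numbered 11246 in mouse, 7418 in spiny mouse and 5723 for the species difference, against 12085, 8180 and 6290 without it. Same-numbered samples did not deviate in the same direction, with mean correlations of 0.00943 in mouse and -0.355 in spiny mouse. Other-numbered samples had means of -0.00325 and 0.119. Deviations within a group sum to 0, so these means nearly follow from the same-numbered ones and are no separate comparison. In spiny mouse each same-numbered correlation was negative, from -0.526 to -0.196, and the cause was not tested. The numbers were not taken to pair samples. Relative to TMM, the mouse median log2 fold change moved by -0.20 with upper-quartile factors and by -0.24 with library size alone, and higher genes made up 30.5% and 28.6% of mouse calls against 42.4%. For the species difference the share of larger calls was 46.4% with TMM, 61.2% (upper-quartile factors), 66.2% (library size alone) and 36.3% (no filter on low counts). The smallest count of any of the 10 genes in a sample was 106.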
